A study of Mus musculus with 35 samples.

Results

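Hsd3b5, Cyp7b1, Ugt2b38, Elovl3, Slco1a1, Mup10, Serpina12, Serpina4-ps1, C6 and Nox4 are 10 genes of the adult mouse liver that follow growth hormone patterns. They were picked from a list of growth hormone patterned liver genes, and not by a search of all 18193 measured genes. The reason was that they were higher in wild-type liver at 2 months than at 3 weeks, or lower in livers lacking E2f1, E2f2 and E2f3. These 2 contrasts chose the genes and are therefore described here without a test. All 10 were measured, each by its brightest probe set annotated to that symbol alone, on a log2 scale where a difference of 1 is a doubling of signal. None was removed by a filter on dim genes. In GRCm38.p6 they lie on 8 chromosomes, with Hsd3b5 (98618636 to 98645534) and Cyp7b1 (18071944 to 18243890) both on chromosome 3 and Serpina12 (104028769 to 104044443) and Serpina4-ps1 (104077959 to 104086920) close together on chromosome 12. Nox4 spans 87244430 to 87398710 on chromosome 7.

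The livers gave 35 Affymetrix arrays in 9 groups. Livers lacking E2f7 (Albumin-Cre E2f7loxp/loxp), E2f8 (Albumin-Cre E2f8loxp/loxp) or both (Albumin-Cre with both floxed genes) were taken at 3 weeks and at 2 months, with 4 arrays per genotype and age, on an FVB background. Wild-type FVB controls gave 3 arrays at 3 weeks and 5 at 2 months, and no Cre is listed for them. The E2f1/E2f2/E2f3 knockout, with 3 arrays at 2 months, carried Mx1-Cre, E2f1-/-, E2f2-/- and E2f3loxp/loxp on a mixed C57B/L6 and FVB background. Albumin-Cre is active in hepatocytes, Mx1-Cre has an interferon-inducible promoter that works in many cell types, and the E2f1 and E2f2 alleles are absent from the whole body. Strain, Cre line and genotype therefore cannot be told apart in the E2f1/E2f2/E2f3 knockout.

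The pituitary of adult male rodents releases growth hormone in pulses, while release in females is more continuous. In hepatocytes the pulses activate the kinase Jak2 and the transcription factor Stat5b, which maintain a male pattern of steroid, lipid and drug metabolism and of secreted urinary proteins. The pattern is established around puberty, so many of its genes are low in the weanling liver, and loss of the pulses lowers male-biased genes and raises female-biased ones. E2f1, E2f2 and E2f3 are E2F proteins that can activate cell cycle genes, and E2f7 and E2f8 are atypical E2F proteins that repress them.

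Upstream sequences were matched in RefSeq (GRCm38.p6) for 7 of the 10 genes: C6, Hsd3b5, Mup10, Nox4, Serpina12, Slco1a1 and Ugt2b38. They are shown because these genes were low together in the E2f1/E2f2/E2f3 knockout, and because Stat5 and E2F proteins recognise short motifs. The 250 bases before the start were searched on both strands for the Stat motif TTCNNNGAA, for TTC and GAA parted by 4 bases, and the E2F motifs TTTCCCGC and TTTGGCGC. The window of Hsd3b5 at chr3:98645535-98645784, minus strand, held TTC and GAA parted by 4 bases, starting at -203, and that of Nox4 at chr7:87246399-87246648, plus strand, held TTCNNNGAA starting at -222. The window of Mup10 at chr4:60582156-60582405, minus strand, held none. The Nox4 window and part of the Mup10 window lie inside the annotated spans of their genes, because RefSeq also lists starts further upstream. The sequences run 5′ to 3′ on the gene's strand, and the motif is in capitals.
Hsd3b5: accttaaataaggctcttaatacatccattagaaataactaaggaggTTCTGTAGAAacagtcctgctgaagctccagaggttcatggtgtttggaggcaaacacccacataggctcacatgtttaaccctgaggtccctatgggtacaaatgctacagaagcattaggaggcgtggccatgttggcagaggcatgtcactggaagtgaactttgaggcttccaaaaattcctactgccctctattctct
Nox4: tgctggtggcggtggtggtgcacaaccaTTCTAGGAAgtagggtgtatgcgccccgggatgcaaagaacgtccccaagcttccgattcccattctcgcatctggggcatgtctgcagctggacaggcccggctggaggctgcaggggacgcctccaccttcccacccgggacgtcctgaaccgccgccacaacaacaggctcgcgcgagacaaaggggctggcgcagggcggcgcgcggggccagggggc
Mup10: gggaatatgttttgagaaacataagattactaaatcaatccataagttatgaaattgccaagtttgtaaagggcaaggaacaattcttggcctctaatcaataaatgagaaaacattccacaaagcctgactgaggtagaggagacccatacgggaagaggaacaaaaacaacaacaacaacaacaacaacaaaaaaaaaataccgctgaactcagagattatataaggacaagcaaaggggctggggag
Of 32851 RefSeq promoters of this length, 7.02% held TTCNNNGAA and 5.85% the form with 4 bases between, each against 1 of these 7. TTTCCCGC was in 0.895% and TTTGGCGC in 0.417% of promoters and in 0 of the 7. A match of letters is a description and not a binding site, and its absence from a short window says nothing of the factor.

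Clustering of the sorted values gave 3 sets of arrays, called runs here. The first held wild-type replicates 1 to 3 and the E2f7 and E2f8 series at 2 months, the second held wild-type replicates 4 and 5 and the E2f1/E2f2/E2f3 knockout, and the last held every array at 3 weeks. Knockouts were compared with wild type from the same run only. Hepatocyte markers were bright everywhere, with an array mean over 13 genes of 13.25 to 14.28 log2. The best Xist probe set stayed between 5.67 and 7.00 and the best Eif2s3y probe set, on the Y chromosome, between 7.62 and 9.27 over all arrays. The other Xist probe sets read at most 4.35 and 4.17 on any array, and the other of Eif2s3y at most 3.92. The labels do not say that each array came from its own animal, so errors measure the spread between these samples. Replicate 3 of the E2f1/E2f2/E2f3 knockout stood apart in these genes, as did wild-type replicate 3 and E2f7/E2f8 knockout replicates 3 and 4 at 3 weeks, and the values that leaving them out moved most are given both ways.

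All 10 genes were lower in the E2f1/E2f2/E2f3 knockout than in wild-type replicates 4 and 5, and no knockout array of any of the 10 reached the lower of these 2 controls. The differences ran from -0.72 for Nox4 to -4.24 for Serpina4-ps1, with a median of -2.68 against 0.00 over all genes. Arrays lay as completely below the controls in 13.2% of all genes, and 0.473% of all genes had a difference below -1 log2, as 9 of these 10 did. The contrast chose the genes, so nothing is read from these shares. In bulk tissue, fewer cells of a type and less RNA per cell cannot be told apart.

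The steroid and bile acid enzymes were described first. Hsd3b5, a male-specific steroid reductase of the liver, read 10.85, 11.26 and 6.85 in the knockout against 13.36 and 12.18 in wild type, a mean 8.64-fold lower with all 3 arrays and 3.27-fold lower without replicate 3. Cyp7b1, an oxysterol hydroxylase of the alternative bile acid pathway, read 11.87, 12.40 and 11.33 against 13.60 and 12.78. Ugt2b38, a member of the UDP-glucuronosyltransferase family that conjugates steroids and drugs, read 6.29, 6.94 and 4.82 against 10.32 and 9.37, a mean 14.2-fold lower, or 9.39-fold without replicate 3. Replicate 3 was the lowest of the knockout arrays in each, with the widest gap in Hsd3b5 and the narrowest, 0.81 log2 below the mean of the other 2, in Cyp7b1. Probes of Ugt2b38 may also take up RNA of its near-identical family members, as may those of Mup10 and Serpina4-ps1.

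Lipid and transport genes had the widest spread. Elovl3, which elongates very long saturated and monounsaturated fatty acids, read 10.22, 10.51 and 5.85 against 11.72 and 12.10. Slco1a1, an organic anion transporter of the hepatocyte surface, read 11.65, 11.91 and 7.11 against 12.74 and 12.35. Without replicate 3, Slco1a1 was 1.70-fold lower and Elovl3 2.91-fold lower than wild type, where all 3 arrays gave 4.99-fold and 8.28-fold. Elovl3 replicates 1 and 2 lay above wild-type replicates 1 to 3 of the other run (9.80, 9.84 and 9.35), so the direction for Elovl3 depends on which wild-type arrays are the controls in these 2 livers.

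Genes of secreted proteins, and a pseudogene, came next. Serpina12 (vaspin), a serpin also made by fat, read 8.07, 9.28 and 5.23 against 10.87 and 10.45. Serpina4-ps1, a transcribed pseudogene next to Serpina12 on chromosome 12, read 7.58, 6.50 and 5.09 against 10.10 and 11.16. The neighbours were thus 8.79-fold and 18.9-fold lower, or 3.97-fold and 12.1-fold without replicate 3. Mup10, a major urinary protein that binds pheromones, read 9.65, 10.45 and 7.43 against 11.50 and 11.08. C6, a component of the complement membrane attack complex, read 10.06, 10.77 and 8.38 against 11.44 and 11.05. Mup10 was 4.33-fold and C6 2.83-fold lower, or 2.36-fold and 1.77-fold without replicate 3. The other probe sets of Serpina4-ps1 gave -4.05 and -4.04, and the second of Slco1a1 gave -2.30 log2. The second probe set of Serpina12 was dim and gave -0.51, and the third of Cyp7b1, at 3.59 in wild type, gave 0.07.

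Nox4, an NADPH oxidase that makes hydrogen peroxide, behaved differently. It read 9.04, 9.06 and 9.17 in the knockout against 9.89 and 9.72 in wild type, a mean 1.64-fold lower, and its second probe set gave -0.71 log2. Its knockout arrays spanned 0.14 log2, and it was the only one of the 10 in which replicate 3 was not the lowest.

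**Figure D1:**
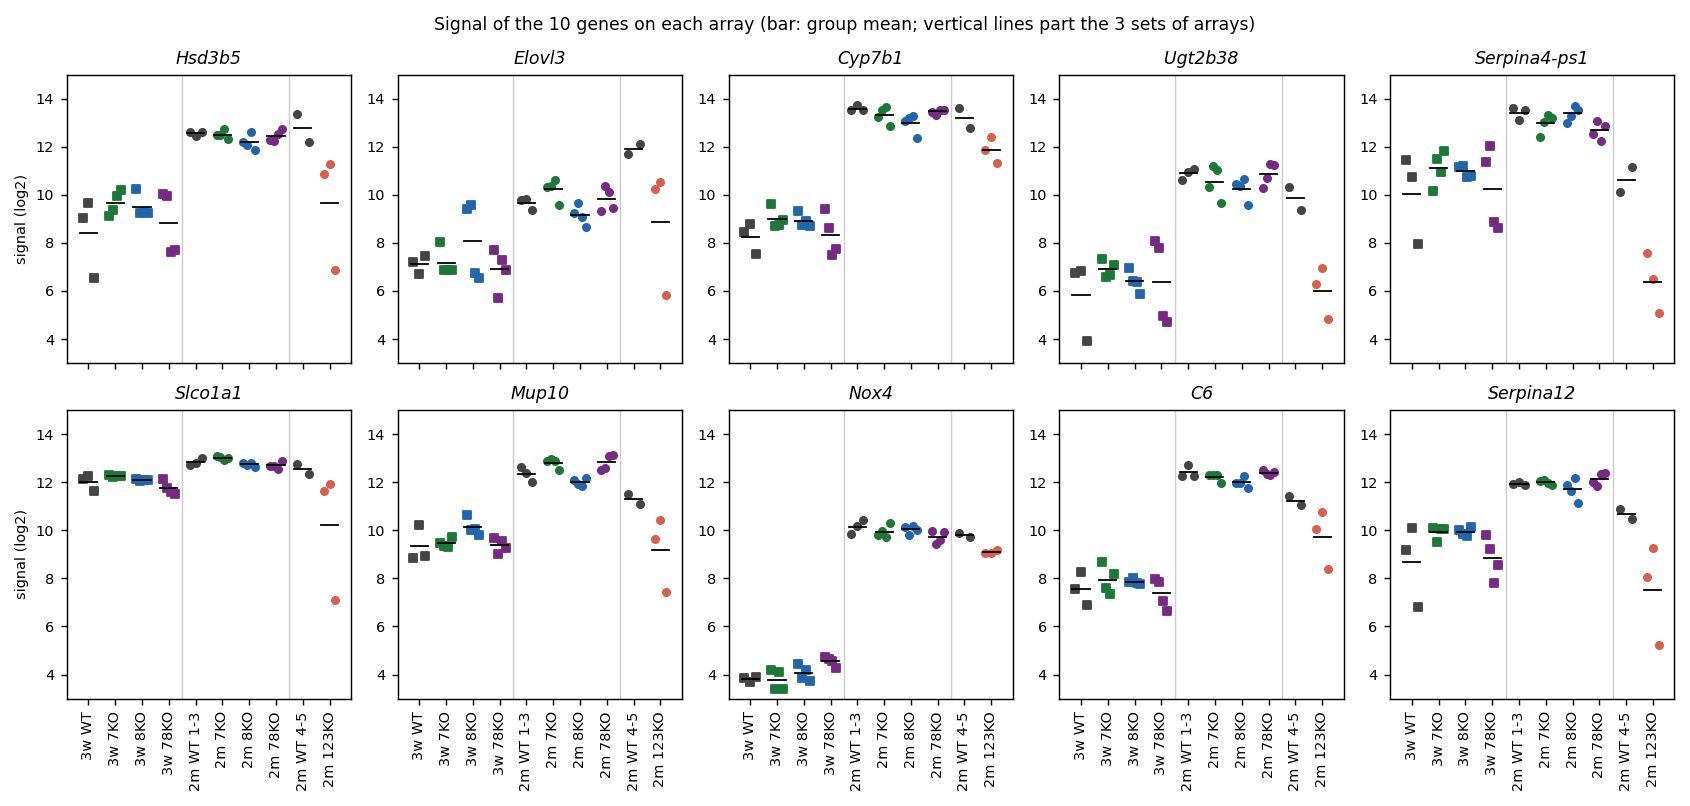
Log2 signal (vertical axis) of each of the 10 genes on each array, in 10 groups of genotype, age and run (horizontal axis); points are arrays, squares 3 weeks and circles 2 months, and bars are group means. In the E2f1/E2f2/E2f3 knockout (123KO) Serpina4-ps1 reads 7.58, 6.50 and 5.09 against 10.10 and 11.16 in wild-type replicates 4 and 5, and Nox4 lies between 3.40 and 4.74 on every array at 3 weeks.

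Over the 10 genes, replicate 3 lay a median of 2.33 log2 below the mean of replicates 1 and 2. It was lower by over 2 log2 in 6 of them and in 40 of all 18193 genes (0.220%). Replicate 3 is part of the mean that chose the genes, so nothing is read from these counts. Replicates 1 and 2 were still below both controls for all 10, with a median difference of -1.39 and a range of -3.59 to -0.76, whereas replicate 3 gave a median of -5.23. The mean over the 10 genes was -2.53 with and -1.67 without replicate 3.

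Genes with the opposite sex bias were high on the same array. Of 16 measured female-biased liver genes, 15 lay above both controls in replicate 3 with a median difference of 2.42 log2, against 14 and 13 with medians of 0.45 and 0.44 in replicates 1 and 2. Of all genes, 32.7%, 35.1% and 35.8% lay above both controls in replicates 1, 2 and 3. Sult2a2, a sulfotransferase, read 5.31, 4.21 and 11.53 in the knockout against 3.69 and 3.91 in wild type. Cyp2b9, a female-biased cytochrome P450, read 9.32, 8.85 and 13.19 against 4.95 and 6.77. Sult1e1, the estrogen sulfotransferase, read 4.16, 4.13 and 9.10 against 4.09 and 3.95, so Cyp2b9 was above both controls on every knockout array and Sult1e1 clearly so on 1. These 3 genes were named after their values were seen. Of 17 other male-biased genes, 16 were below both controls in replicate 3 (median -1.32), and 11 and 8 in replicates 1 and 2 (medians -0.17 and -0.10), where 37.4%, 34.5% and 33.7% of all genes were.

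**Figure D2:**
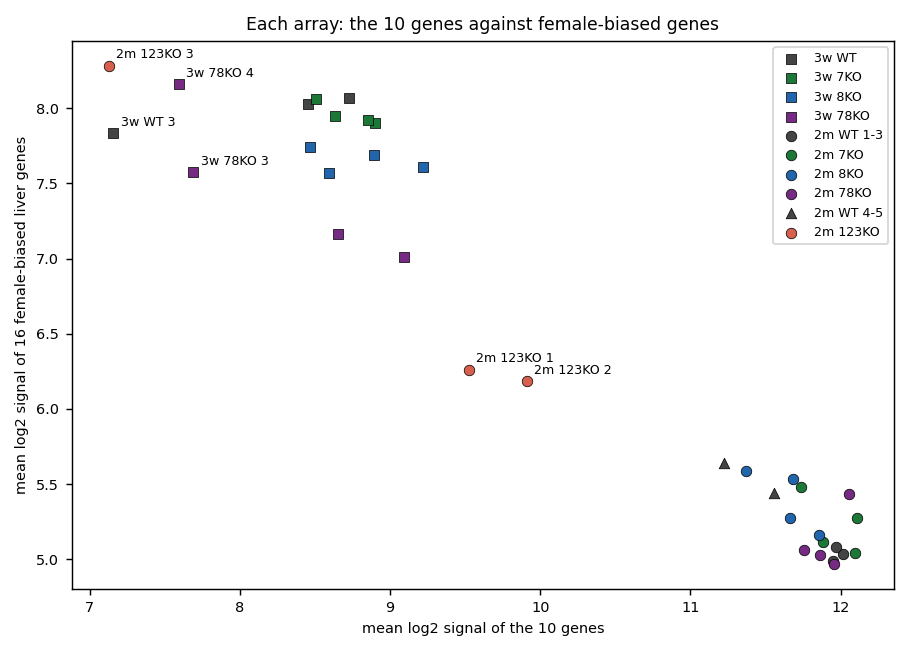
Mean log2 signal of the 10 genes (horizontal axis) against the mean of 16 female-biased liver genes (vertical axis); each point is an array, coloured by genotype, with squares for 3 weeks, circles for 2 months and triangles for wild-type replicates 4 and 5. Replicate 3 of the E2f1/E2f2/E2f3 knockout (123KO) lies at 7.13 and 8.28, and replicates 1 and 2 lie at 9.53 and 9.91 on the horizontal axis. Arrays at 3 weeks span 7.16 to 9.22 and 7.01 to 8.16. These are deposited values, and the median signal was 5.23 log2 in the run at 3 weeks and 5.94 in that of this knockout. The order of arrays across runs is therefore not read.

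Genes of the growth hormone pathway were lower in 14 of 17 cases, with a median of -0.60 log2 and no test. Onecut1, a liver transcription factor that growth hormone induces, read 8.00, 7.08 and 7.26 in the knockout against 8.76 and 9.32. Ghr, the growth hormone receptor, read 13.13, 13.25 and 12.24 against 13.44 and 13.36. Igf1, the main growth hormone target secreted by the liver, read 13.12, 13.17 and 12.93 against 13.19 and 12.89. The controls themselves differed widely in Cish, a feedback inhibitor induced by Stat5, at 8.62 and 11.03, and the knockout arrays at 8.54 to 9.14 did not lie clear of them. Stat5b differed by -0.13 and Jak2 by -0.20.

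Markers of other cells were read beside these values. Hepatocyte markers differed by a median of 0.03 log2 (9 of 13 higher), with array means of 14.21 to 14.28 in the knockout and 14.18 to 14.19 in wild type. Macrophage markers were higher in 8 of 10 cases, with a median of 0.60 and array means of 8.96 to 9.30 against 8.29 to 8.55. Interferon response genes differed by a median of 0.09 (13 of 22 higher) and acute phase genes by 0.10 (10 of 18 higher). Array means of the interferon genes ran from 7.54 to 8.41 in the knockout, on both sides of the controls at 7.97 to 8.04. Those of the acute phase genes were 12.63 to 13.18 against 12.15 to 12.96. No marker reads 0 on this scale, and the part of macrophage RNA in the lower signal of the 10 genes was not tested.

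The wild-type arrays of the runs differed too. Replicates 4 and 5 lay below replicates 1 to 3 in 8 of the 10 genes, with a median of -0.72 log2. Serpina4-ps1 was lowest, at 10.10 and 11.16 against 13.60, 13.13 and 13.51. Elovl3 went the other way, at 11.72 and 12.10 against 9.80, 9.84 and 9.35. A difference of 2.25 log2 between wild-type sets thus stood beside the difference of -3.05 between Elovl3 in the knockout and its own controls.

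From 3 weeks to 2 months, the signal of wild-type replicates 1 to 3 was higher for all 10 genes, and none of these arrays overlapped those at 3 weeks. Wild-type replicates 4 and 5 of the other run were also above every array at 3 weeks in 9 genes, but in Serpina4-ps1 they read 10.10 and 11.16 within a range of 7.96 to 11.44. As 86.0% of all genes also did not overlap and the median gene was 0.78 log2 higher, differences between the ages are given above that median. Nox4 had the largest, at 5.55, from 3.87, 3.71 and 3.89 at 3 weeks to 9.83, 10.18 and 10.44 at 2 months. Cyp7b1 followed with 4.56, from 8.43, 8.78 and 7.52 to 13.51, 13.71 and 13.53. Ugt2b38 stood at 4.28, C6 at 4.06 and Hsd3b5 at 3.38. Without wild-type replicate 3 at 3 weeks, Hsd3b5 stood at 2.43, Ugt2b38 at 3.31 and Serpina4-ps1 at 1.53 (2.58 with it), Serpina12 was 0.95 below its 2.45 with that array, and Nox4 stayed at 5.57. Slco1a1 was the exception, at 0.04 (-0.16 without that array), from 12.15, 12.28 and 11.65 to 12.74, 12.81 and 12.99. It was thus already bright at 3 weeks and kept pace with the median gene. Age and run cannot be told apart in any comparison of the ages.

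The knockouts of E2f7 and E2f8 were not used to choose the genes for this rise, so the same change was tested in them. In the deposited values 9 of 10 genes rose in the E2f7 knockout, 8 in the E2f8 knockout and 9 in the E2f7/E2f8 knockout (limma, adjusted p under 0.05), but so did 89.1%, 89.2% and 89.2% of all genes. After quantile normalization of all arrays, which removes the shift of the median, 8, 7 and 9 of the 10 rose, against 30.1%, 29.3% and 29.3% of all genes.

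Nox4 rose in all 3 genotypes. In the E2f7/E2f8 knockout it went from 4.74, 4.64, 4.58 and 4.29 to 9.99, 9.43, 9.59 and 9.92. That was a change of 4.39 above the median in the deposited values (SE 0.17). The E2f7 knockout had 5.39 and the E2f8 knockout 5.20 (SE 0.17 each). After quantile normalization the change of Nox4 in the E2f7/E2f8 knockout was 4.46 (SE 0.17, limma adjusted p = 4.35e-19). Cyp7b1 changed by 3.52, 3.29 and 4.37 above the median in the E2f7, E2f8 and E2f7/E2f8 knockouts (SE 0.31 each), and C6 by 3.48, 3.35 and 4.24 (SE 0.33 each). Mup10 changed by 2.56, 1.11 and 2.66 (SE 0.36 each) and Hsd3b5 by 2.04, 1.92 and 2.83 (SE 0.65 each). All of these passed after quantile normalization, with limma adjusted p at or below 0.00987. Without replicates 3 and 4 at 3 weeks, the E2f7/E2f8 knockout had 1.68 for Hsd3b5 and 2.17 for Ugt2b38 (3.71 with them), and 4.27 for Nox4. Leaving them out with wild-type replicate 3 kept the count in that knockout at 9 of 10 in the deposited values. With all arrays kept, 89.2% of all genes rose in those values, so nothing is read from this count. This setting was not run after quantile normalization.

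The remaining genes were less even. Ugt2b38 rose in all 3 genotypes under quantile normalization, by 2.96, 3.20 and 3.78 log2. Serpina4-ps1 rose by 1.72 and 1.71 in the E2f8 and E2f7/E2f8 knockouts but in the E2f7 knockout, at 1.15, the limma adjusted p was 0.110. In the E2f7/E2f8 knockout, Serpina4-ps1 stood 1.67 above the median gene, but 0.21 without replicates 3 and 4 at 3 weeks. Serpina12 rose in the E2f7 and E2f7/E2f8 knockouts, and in the E2f8 knockout, at 1.08, the limma adjusted p was 0.0926. Elovl3 rose in the E2f7 and E2f7/E2f8 knockouts by 2.39 and 2.21. In the E2f8 knockout it was spread over 9.41, 9.58, 6.74 and 6.54 at 3 weeks, against 9.26, 9.64, 9.07 and 8.65 at 2 months, and the arrays of the ages overlapped. Slco1a1 differed from the median gene by -0.02, -0.12 and 0.18 (SE 0.50 each). In the deposited values it passed in all 3 genotypes, and Elovl3 in the E2f8 knockout, once replicate 3 of the E2f1/E2f2/E2f3 knockout was left out of the shared estimate of spread.

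**Figure D3:**
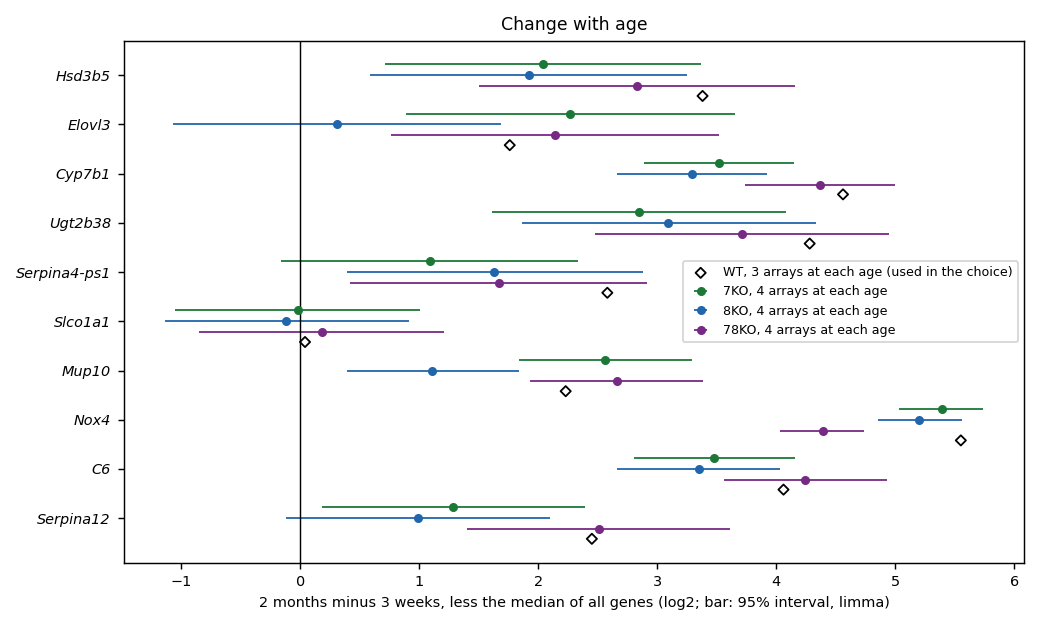
Difference in log2 signal between 2 months and 3 weeks, less the median of all genes (horizontal axis), for each of the 10 genes (vertical axis); filled points are the E2f7 (7KO), E2f8 (8KO) and E2f7/E2f8 (78KO) knockouts with 95% intervals from limma, and open diamonds wild type, which was used to choose the genes. Nox4 lies farthest to the right in each genotype, between 4.39 and 5.55, and Slco1a1 lies near 0.

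Other sex-biased genes were read in the same contrasts. Of 16 female-biased genes, 12, 9 and 10 fell with age in the E2f7, E2f8 and E2f7/E2f8 knockouts in the deposited values (limma adjusted p under 0.05), where 2.57%, 2.32% and 2.71% of all genes fell. The 17 other male-biased genes had medians of 0.65, 0.62 and 0.72 log2 above the median of all genes. The array mean of the female-biased genes was 7.01 to 8.16 at 3 weeks and 4.97 to 5.59 in the first run at 2 months.

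At 2 months none of the 10 genes passed the test in the knockouts of E2f7, E2f8 or both against wild-type replicates 1 to 3. With limma 0 of 10 were called in each, where 0.00550%, 0.209% and 0.00550% of all genes were called higher and 0%, 0.143% and 0.00550% lower. At an unadjusted p under 0.05 the counts were 0, 0 and 1 of 10, beside 7.03%, 7.34% and 4.06% of all genes. These counts use a spread shared with the E2f1/E2f2/E2f3 knockout, which helped choose the genes. The median standard deviation of the 10 genes was 1.40 log2 there and 0.23 to 0.32 in the groups compared. Nothing is therefore read from the unadjusted counts. The median differences were -0.13, -0.35 and -0.06 log2, and all 10 genes were on the lower side in the E2f8 knockout. The 3 comparisons share their wild-type arrays.

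In the E2f8 knockout Cyp7b1 read 13.05, 13.21, 13.26 and 12.38 against 13.51, 13.71 and 13.53 in wild type, a difference of -0.61 (95% interval -1.29 to 0.08, limma adjusted p = 0.778). It was the only one of the 10 whose arrays did not overlap there, as in 4.50% of all genes that were lower. In the E2f7/E2f8 knockout Serpina4-ps1 read 12.54, 13.07, 12.22 and 12.86 against 13.60, 13.13 and 13.51, a difference of -0.74 (interval -2.09 to 0.60, limma adjusted p = 1.00). It too did not overlap, as in 2.39% of all genes that were lower. Nox4 differed by -0.42 in that knockout (interval -0.80 to -0.04, unadjusted p = 0.0332, limma adjusted p = 1.00).

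The intervals were wide because the fit shares 1 estimate of spread over all 35 arrays. With only the groups compared, the standard errors of the 10 genes at 2 months were 0.07 to 0.32 log2 and again 0 of 10 were called, with limma adjusted p between 0.200 and 0.998. These differences were not compared with those of the E2f1/E2f2/E2f3 knockout, which chose the genes and was measured in another run, with other controls and on another strain background.

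**Figure D4:**
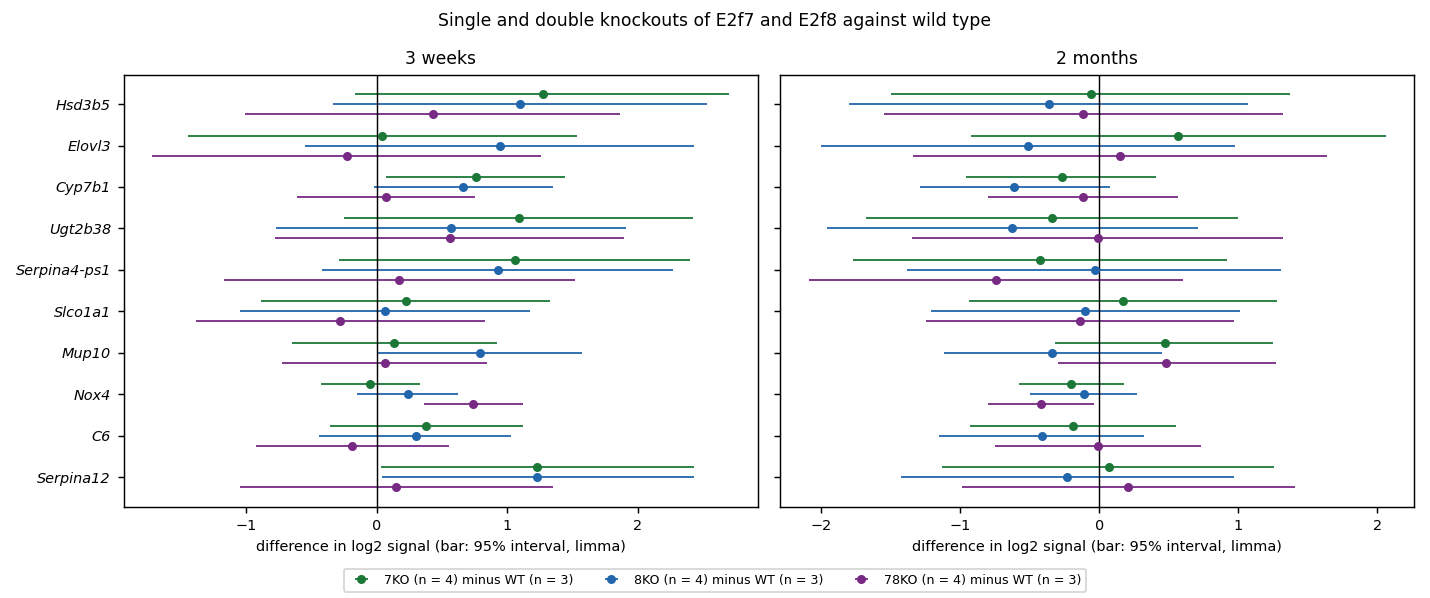
Difference in log2 signal between each knockout (n = 4) and wild type (n = 3) at 3 weeks (left) and 2 months (right) for each of the 10 genes, with 95% intervals from limma. Points at 2 months lie between -0.74 and 0.57, and at 3 weeks Nox4 in the E2f7/E2f8 knockout (78KO), at 0.74, has an interval from 0.36 to 1.12.

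At 3 weeks the knockouts again gave no call: with limma 0 of 10 passed in each of the E2f7, E2f8 and E2f7/E2f8 knockouts. Of all genes 0.0110%, 0.879% and 0.440% were called higher and 0.0330%, 1.03% and 0.209% lower. At an unadjusted p under 0.05 the counts were 2, 2 and 1 of 10, beside 11.2%, 15.2% and 15.5% of all genes. The spread is again shared with the E2f1/E2f2/E2f3 knockout, so nothing is read from these counts. The medians were 0.57, 0.73 and 0.11 log2, with 9, 10 and 7 of the 10 on the higher side. Much of this rested on wild-type replicate 3: without it the medians were 0.09, 0.22 and -0.43, and without E2f7/E2f8 knockout replicates 3 and 4 as well, the last was 0.21.

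That array was low in a set of the genes. Hsd3b5 read 9.04, 9.64 and 6.52 in wild type, and Ugt2b38 6.76, 6.81 and 3.91. E2f7/E2f8 knockout replicates 3 and 4 were low in the same way, with Hsd3b5 at 10.05, 9.93, 7.64 and 7.70 and Ugt2b38 at 8.07, 7.79, 4.96 and 4.72. The E2f7 knockout, at 9.12, 9.36, 9.97 and 10.21 for Hsd3b5, and the E2f8 knockout, at 10.24, 9.25, 9.26 and 9.25, had no such array.

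Nox4 in the E2f7/E2f8 knockout came closest to a call. It read 4.74, 4.64, 4.58 and 4.29 against 3.87, 3.71 and 3.89 in wild type, a difference of 0.74 (SE 0.19, limma adjusted p = 0.0576), and its arrays did not overlap, as in 5.50% of all genes that were higher. It passed without knockout replicate 4 (0.83, limma adjusted p = 0.0307) and without wild-type replicate 1 (0.76, limma adjusted p = 0.0491). These signals are dim, with only 16.4% of genes dimmer in wild type at this age.

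Whether a knockout's difference itself changed with age was tested as an interaction. None of the 10 was called for E2f7, E2f8 or both (limma, 0 of 10 each), where 0%, 0.346% and 0% of all genes were called higher and 0%, 0.0824% and 0.00550% lower. At an unadjusted p under 0.05 there were 1, 2 and 1 of 10, beside 6.87%, 9.67% and 7.28% of all genes. These counts rest on the same shared spread, and nothing is read from them. For Nox4 in the E2f7/E2f8 knockout the change was -1.16 (SE 0.27, limma adjusted p = 0.280), and for Cyp7b1 in the E2f8 knockout -1.27 (SE 0.47, limma adjusted p = 0.297).

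Within groups most pairs of the genes had a positive correlation at 3 weeks. Over 15 arrays, after each group's mean was taken out, the median Pearson r of the 45 pairs was 0.46, and 41 pairs were above 0. Over the 15 arrays of the first run at 2 months it was 0.16, with 31 pairs above 0. At 3 weeks the median r with the other 9 genes was 0.84 for Ugt2b38, 0.79 for Hsd3b5 and Cyp7b1 and 0.75 for Serpina12, but 0.21 for Nox4 and 0.04 for Elovl3. The 3 low arrays named above are among the 15, and all values of an array share its hybridization and normalization. These correlations are therefore descriptions and carry no p-value. Values without the low arrays, and over pairs of all genes, were not computed.

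Growth hormone pathway genes went both ways on those arrays. Of the 17, 5 (Onecut1, Cish, Socs3, Igf1 and Igfals) were lower in wild-type replicate 3 than in replicates 1 and 2 and also in both E2f7/E2f8 knockout replicates 3 and 4 than in 1 and 2, and 2 (Stat5b and Bcl6) were higher in the same sense. Of all genes, 8.45% were lower and 9.86% higher in this way, and of the 10 genes 7 were lower and 0 higher. These arrays were singled out for low values of the 10 genes, so nothing is read from the count of the 10. Onecut1 read 8.65, 8.38 and 7.00 in wild type and 8.37, 9.60, 6.93 and 6.95 in the E2f7/E2f8 knockout at 3 weeks. Cish read 8.91, 8.89 and 8.27, and 9.02, 9.31, 7.82 and 7.93. Bcl6, a repressor that Stat5 itself represses, read 6.32, 5.81 and 7.19, and 7.93, 5.51, 8.16 and 8.68. Ghr and Jak2 were highest in wild-type replicate 3, at 12.31 and 7.75. Outside these groups, E2f7 knockout replicate 1 at 3 weeks also read low, at 6.97 for Onecut1 and 8.07 for Cish. The female-biased Sult2a2 read 11.55, 11.27 and 12.73, and 8.42, 8.52, 11.46 and 12.09. Cyp2b9 and Cyp2b13 of the same list were instead lower in wild-type replicate 3, at 10.37, 10.57 and 9.69, and 10.07, 9.97 and 9.06. In the E2f7/E2f8 knockout they read 9.35, 9.37, 10.06 and 10.53, and 7.64, 7.65, 8.47 and 10.01. These genes were named after their values were seen, and the rest of the list was not counted. As tests between groups, 0 of the 17 pathway genes were called by limma in any of the 6 comparisons of E2f7 and E2f8 knockouts with wild type.

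**Figure D5:**
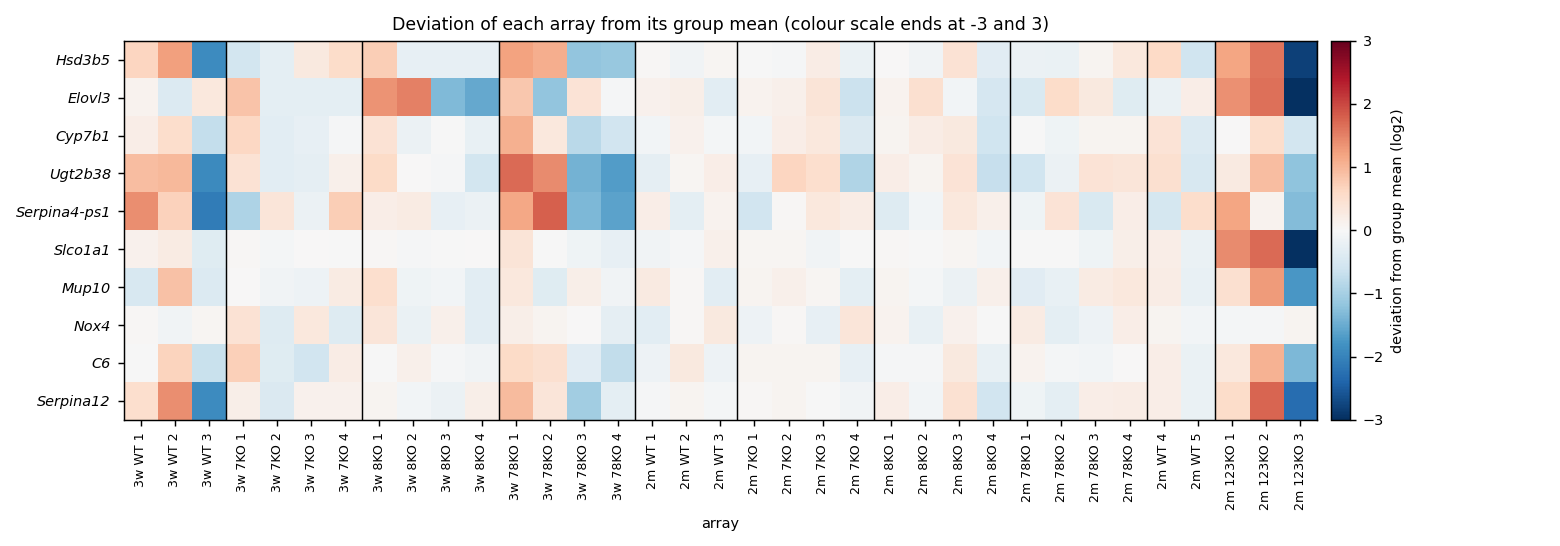
Deviation of each array (horizontal axis) from its group mean in log2 units for the 10 genes (vertical axis), with red above and blue below; black lines part the groups and the colour scale ends at -3 and 3. Wild-type replicate 3 and E2f7/E2f8 knockout (78KO) replicates 3 and 4 at 3 weeks are blue in Hsd3b5, Ugt2b38 and Serpina4-ps1, and E2f1/E2f2/E2f3 knockout (123KO) replicate 3 is blue in 9 of the 10 genes.

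In other lists a few genes were called in the same contrasts. In the E2f8 knockout at 2 months Acot3, a peroxisomal thioesterase of the female-biased list, rose by 2.31 log2 (SE 0.51, limma adjusted p = 0.0332), and Akr1d1, a bile acid reductase, rose by 0.81 (SE 0.17, limma adjusted p = 0.0303). The acute phase genes Orm2, Saa1 and Saa2 fell by 3.28, 2.65 and 3.55, and the macrophage genes Cd5l and C1qb by 0.94 and 0.84. Wild-type replicates 1 and 2 stood apart from replicate 3 in acute phase genes, with means over 18 genes of 13.29, 13.20 and 11.94 against 11.80 to 11.91 in the E2f8 knockout. Saa1 read 14.01, 13.88 and 10.82 in wild type and 10.07, 10.32, 10.55 and 10.05 in the knockout. Without wild-type replicate 2, none of these 7 genes passed, and without replicate 1 Akr1d1 alone did. Leaving out wild-type replicate 3 lost 1 of the 7 calls, and leaving out knockout replicates 1, 2, 3 and 4 in turn lost 5, 4, 2 and 6, with limma adjusted p up to 0.365 over these settings. At 3 weeks, in the same genotype, Cyp2b13, a female-biased cytochrome P450, fell by 2.46 (SE 0.51, limma adjusted p = 0.0103) and the clock gene Per3 by 1.35 (SE 0.23, limma adjusted p = 0.00207), and both passed whichever of the 7 arrays was left out. Cyp2b13 read 8.12, 9.08, 5.52 and 6.26 in that knockout against 10.07, 9.97 and 9.06 in wild type. Its fall was thus largest in knockout replicates 3 and 4, and leaving out both was not tested. Also called in the E2f8 knockout at 3 weeks were Tef (-0.61 log2), Npas2 (0.53), Aif1 (-0.60), Adgre1 (-0.58), Bmp2 (-0.79), Slc4a1 (-1.08) and Tfrc (1.05). Each of these stayed called in only 3 to 5 of the 7 settings that left out 1 array. All 10 macrophage markers were on the lower side in each of the 6 comparisons of E2f7 and E2f8 knockouts with wild type. Their medians were -0.34 to -0.64 log2, with limma calls in the E2f8 knockout alone. The comparisons at each age share their wild-type arrays, so these are not 6 separate results. The part of macrophage RNA in the values of the 10 genes was not tested.

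The genes whose pattern was most like the mean of the 10, over the 10 means of group and run, were Cyp2u1 (r = 0.992), Tirap (0.991), Lig3 (0.990), Carmil1 (0.988) and Hes6 (0.987). Cyp2u1 had means of 7.17 to 7.53 at 3 weeks, 9.03 to 9.37 at 2 months and 7.52 in the E2f1/E2f2/E2f3 knockout. An r over 0.9 was common, in 3825 of the 18183 other genes, because most genes were brighter at 2 months. Of the 10, Ugt2b38 followed their mean most closely (0.989), while Serpina4-ps1 and Slco1a1 followed it least (0.704 and 0.688).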

How the data were processed

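The authors deposited 1 value per probe set and array on a log2 scale, made by RMA (robust multi-array averaging), version not given, according to what the submitters' processing notes name. Of 45101 probe sets, 34945 carried 1 gene symbol, 932 several, 9160 none, and 64 were controls. Each gene was represented by its brightest single-symbol probe set (18193 genes). The number of arrays limits precision. The 3 runs were found by clustering the sorted values and are not named in the labels.

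Groups were compared with limma 3.58.1 (R 4.3.3) as group means over 35 arrays with an intensity trend and a term for the run of the E2f1/E2f2/E2f3 knockout, 25 residual degrees of freedom, and Benjamini-Hochberg adjustment over all genes at 0.05. Summaries used Python 3.11.15. The fit was tested on simulated data. Alternatives were quantile normalization, only the groups compared, no run term, averaging the probe sets of each gene, leaving out the dimmest 40 percent of genes, no intensity trend, array weights, a replicate block and leaving out each array. Centring each array, leaving out replicate 3 of the E2f1/E2f2/E2f3 knockout and leaving out 3 low arrays at 3 weeks were chosen after seeing the data.

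The genes and lists were chosen with earlier results of these data known. Besides the 10 genes, those named were the 5 of most similar pattern, growth hormone pathway genes, up to 3 called genes per list and comparison, Xist and Y-linked genes, and genes said to be chosen after their values were seen.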

Additional observations from a re-analysis of the deposited data

Results flagged for a closer look

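Among 70 combinations of gene and group with 4 or 5 arrays, 5 had an array whose gap to the nearest other array, as a share of the group's range, passed Dixon's critical value (0.829 for 4 arrays, 0.710 for 5). Chance gives a share of about 0.05, so flags at about this rate come by chance. Hsd3b5 in E2f8 knockout replicate 1 at 3 weeks read 10.24 against 9.25 to 9.26 (0.985). Elovl3 in E2f7 knockout replicate 1 at 3 weeks read 8.04 against 6.88 on the other arrays (0.997). Serpina12 in E2f7 knockout replicate 2 at 3 weeks read 9.51 against 10.05 to 10.11 (0.911). C6 in E2f7 knockout replicate 4 at 2 months read 11.97 against 12.30 to 12.31 (0.972). Cyp7b1 in wild-type replicate 5 at 2 months read 12.78 against 13.51 to 13.71 (0.779), in a group that spans 2 runs. The groups of 3 arrays, among them the E2f1/E2f2/E2f3 knockout, are too small for this check.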

How the results depend on the processing

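Over the 12 tested comparisons, 232 of 235 counts of called genes stayed within 1.5 times the reported count. The exceptions were all in the E2f7/E2f8 knockout at 3 weeks, where Nox4 made the count 1 with the replicate block (0.76, limma adjusted p = 0.0434), and when knockout replicate 4 or wild-type replicate 1 was left out. Leaving out 1 array gave 0 to 1 there, 9 to 10, 8 to 10 and 9 to 10 for the rise with age in the E2f7, E2f8 and E2f7/E2f8 knockouts, and 0 to 0 elsewhere. With all arrays kept, 89.1%, 89.2% and 89.2% of all genes rose with age in these deposited values. The steady counts of that rise are thus not particular to the 10 genes. Over Nox4's alternatives at 3 weeks the limma adjusted p ran from 0.0307 to 0.237. Replicate numbers did not pair the samples: same-numbered arrays had correlations of -0.288 to 0.237, over 0.1 in 7 of 30 pairs, and the block moved no other count. The mean of the 10 genes without 1 array was -3.06 to -1.67 in the E2f1/E2f2/E2f3 knockout and 3.39 to 4.17 between the ages in wild type. The number of all genes called in the E2f8 knockout at 2 months was 64, but 282 without the run term and 252 with array weights; at 3 weeks it was 347, but 115 and 161, and 23 with only the groups compared. In the E2f7/E2f8 knockout at 3 weeks it was 118, but 8, 38 and 1. The cause of these shifts was not tested.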
